A study of Homo sapiens with 2 samples.

Results

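Messenger RNA of 74 splicing factor genes, read by 214 of the 54613 probe sets on an Affymetrix Human Genome U133 Plus 2.0 array, was compared between U87 cells that received a control siRNA and U87 cells that received HOXD9 siRNA-2. The genes were chosen by name: those whose symbol begins with HNRNP, SRSF, SF3A, SF3B, PRPF or SNRP, together with U2AF1, U2AF2, PTBP1, PTBP2, RBFOX2, TRA2A, TRA2B, CLK1, CLK4 and RBM39, each from probe sets that the array's annotation gave to 1 gene. A further 30 probe sets with such a name were annotated to several genes and were not used. U87 is a long-established line of human glioblastoma cells. Both siRNAs were used at 50 nM with the lipid reagent Lipofectamine RNAiMAX on cells seeded beforehand, at a time for which the labels and the study's methods differ, and RNA was taken on Day 2. With 1 array for each siRNA there is no error between arrays and no test, and precision is limited by that number.

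Pre-mRNA splicing removes introns in the nucleus. The spliceosome is built on each intron from small nuclear ribonucleoproteins: U1 binds at the 5′ splice site, U2AF at the 3′ splice site and U2 at the branch point, and the joined U4, U5 and U6 particle then enters and is rearranged by PRPF proteins into the active enzyme. SR proteins, which carry stretches rich in serine and arginine, mostly favour the use of nearby exons, hnRNP proteins often oppose it, and regulators such as RBFOX2 and the PTBP proteins act one way or the other according to where on the transcript they bind. Changes in these regulators are known in glioblastoma, where PTBP1, which is low in neurons, is often abundant.

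The signal of a probe set is a linear intensity, and the log2 ratio is that of HOXD9 siRNA-2 over control siRNA, so that a negative value is a lower signal after HOXD9 siRNA-2. Probe sets were kept where the mean signal over both arrays was at least 19.8, the median of all probe sets. That left 182 of the 214 splicing factor probe sets and 69 of the 74 genes. Of the 182, 179 read above background on both arrays, background being the highest signal of 27 bacterial control probe sets. It was 18.4 on the HOXD9 siRNA-2 array and 11.4 on the control array, and the higher value, 18.4, was applied to both arrays here and below. The threshold for calling a gene lower or higher was 2-fold, the one the study used. The HOXD9 siRNA-2 array read lower as a whole: the median log2 ratio of all genes was -0.25, and centering each array on its own median added 0.30 to every log2 ratio. Values below are as deposited unless said to be centered, and a log2 ratio between -0.30 and 0 turns positive on centering. The study's methods give a set amount of RNA for the arrays, and whether array scaling gave this offset was not tested. The targeted gene itself was near background. One HOXD9 probe set read 19.7 on the control array and 5.58 on the HOXD9 siRNA-2 array, and the other read 9.33 and 11.4, so these arrays gave no firm check of the knockdown. Markers of a mesenchymal glioblastoma line were above background on both arrays, with 2 of 2 probe sets for VIM, 12 of 13 for CD44, 7 of 7 for FN1, 3 of 3 for TNC, and 2 of 2 for SPARC. NES, which is also a neural stem cell marker, had 2 of 2. The glial and stem cell markers GFAP, OLIG2, SOX2 and S100B and the leukocyte marker PTPRC had 0 probe sets above background on both arrays. The endothelial marker PECAM1 had 1 of 5, the epithelial marker EPCAM 1 of 1 and the neuronal marker SYT1 1 of 2.

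The splicing factor genes as a whole had a median near that of all genes, and a slightly lower one than the brightest genes. Taking each gene at its brightest kept probe set, their median log2 ratio was -0.26 beside -0.25 for all 11624 genes, and 34 genes lay above and 35 below the all-gene median, as against 50% of all genes above it. RBFOX2 was the 1 gene lower by more than 2-fold, 1.45% of the 69 genes, where 4.95% of all genes and 1.63% of the 3875 brightest genes were. None was higher by more than 2-fold, where 0.516% of all genes were. After centering, 0 splicing factor genes passed 2-fold in either direction, and 2.31% of all genes were then lower. Among single probe sets, 5 of 182 (2.75%) were lower by more than 2-fold beside 6.69% of all kept probe sets, and 0 were higher beside 0.615%. Of the 5, 2 had both signals above background, in RBFOX2 and HNRNPA3, and for the other 3 the fold is only a bound, given with each gene below. These shares lie below those of all genes, and 60 of the 69 genes belong to those 3875 brightest of all 11624 genes, where log2 ratios spread less. Among the brightest the SD over genes was 0.20 for the splicing factors and 0.27 for all genes. The median there was -0.27 for the splicing factors and -0.20 for all genes. Above the all-gene median were 29 of the 60 and 2295 of the 3875.

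**Figure D1:**
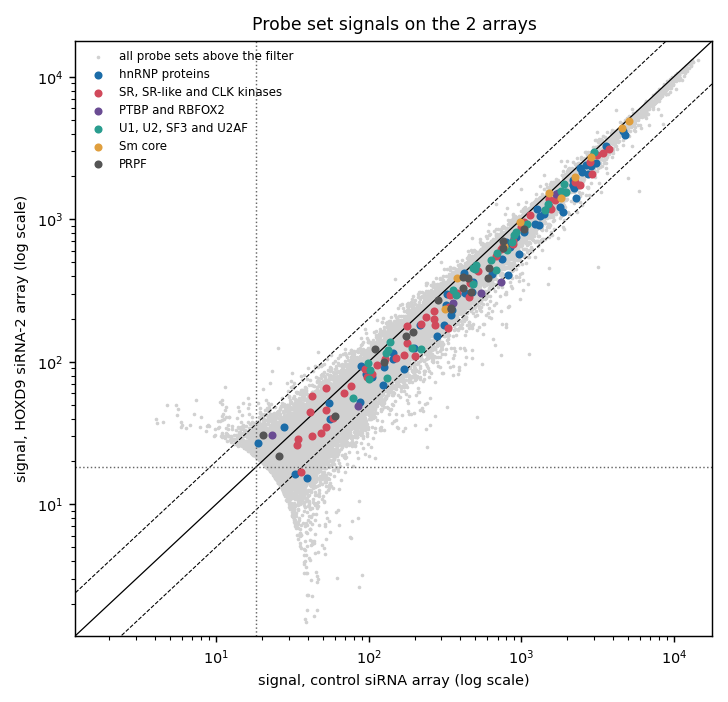
Signal of each kept probe set on the control siRNA array (horizontal, log scale) and on the HOXD9 siRNA-2 array (vertical, log scale); coloured points are the 182 splicing factor probe sets by role and gray points are all 27307 kept probe sets. The solid line marks equal signals, dashed lines mark 2-fold and dotted lines the background of 18.4; 170 of the 182 coloured points lie below the solid line.

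By sign alone, 67 of 69 genes (97.1%) and 170 of 182 probe sets (93.4%) read lower after HOXD9 siRNA-2, beside 83.2% of all genes and 81.9% of all kept probe sets. The splicing factor genes lay around nearly the same median as all genes, from -1.02 to 0.14. Their central part (10th to 90th percentile) ran from -0.63 to -0.07, where that of all genes ran from -0.76 to 0.11. Among the brightest genes it ran from -0.50 to -0.07 for the 60 splicing factors and from -0.52 to 0.02 for all 3875. There 1 of the 60 and 460 of the 3875 were above 0. The 2 genes above 0 as deposited were SNRPB and PRPF39.

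The 19 hnRNP genes had a median log2 ratio of -0.29, which is 0.040 below the all-gene median, and 7 lay above that median and 12 below. hnRNP proteins coat nascent transcripts, and many of them repress exons or bind elements that set RNA stability. The lowest was HNRNPUL1, a relative of the chromatin-associated HNRNPU. Its brighter probe set read 969 after control siRNA and 567 after HOXD9 siRNA-2, a log2 ratio of -0.77, and its other probe set read 426 and 304. Its paralog HNRNPUL2 read 928 and 750 (-0.31), close to the array median.

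HNRNPA3, an A/B type hnRNP that shuttles between nucleus and cytoplasm, was low on every one of its probe sets. They read 1881 after control siRNA and 1127 after HOXD9 siRNA-2, 816 and 405, and 644 and 416. The log2 ratios were -0.74, -1.01 and -0.63, and the second of these passed 2-fold. After centering they were -0.44, -0.71 and -0.33, all still below 0. None of the 3 probe sets is of the kind (name ending in _x_at or _s_at) that the array's design marks as able to bind more than 1 transcript.

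HNRNPL, which binds CA-rich RNA and acts on exon use and on messenger RNA stability, had lower log2 ratios than its paralog HNRNPLL. HNRNPL read 476 after control siRNA and 307 after HOXD9 siRNA-2 on one probe set and 281 and 153 on the other, log2 ratios of -0.63 and -0.88. HNRNPLL, best known for directing the splicing of the leukocyte gene PTPRC, had log2 ratios from -0.10 to 0.51 over 4 probe sets, the brightest at 421 and 419. All probe sets of HNRNPL therefore lay below the array median and all of HNRNPLL above it. HNRNPA0, a binder of AU-rich elements, had the second highest hnRNP value at 1265 and 1181 (-0.10) on its brightest probe set, with -0.35 and -0.47 on the others.

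HNRNPH1, which binds runs of G, depended on the probe set. The brightest read 4814 after control siRNA and 3937 after HOXD9 siRNA-2 (-0.29), at the array median. The next read 2303 and 1414 (-0.70), and a dimmer one read 314 and 182 (-0.79). The dimmest probe set of HNRNPH1, at 33.1 and 16.4, was within background on the HOXD9 siRNA-2 array and was lower by at least 1.80-fold. HNRNPM, which helps set exon use in epithelial and mesenchymal states, was the 1 splicing factor gene whose probe sets spanned more than 1 on the log2 scale, where 13.3% of all genes with several probe sets did. Its 2 bright probe sets read 2196 and 1885 (-0.22) and 2192 and 1755 (-0.32), and the dim ones read 55.7 and 39.5, 27.9 and 34.8, and 39.7 and 15.4. The span came from the dim probe sets alone, and the last of them, within background after HOXD9 siRNA-2, was lower by at least 2.16-fold as deposited and at least 1.75-fold after centering.

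HNRNPD, known as AUF1, binds AU-rich elements and promotes decay of the messages that hold them. Its 6 kept probe sets read -0.42, -0.42, -0.51, -0.60, -0.66 and -0.92, so all lay below the array median. Among the other abundant hnRNP genes, HNRNPA2B1 read 4668 and 4179 (-0.16), HNRNPK 3614 and 3283 (-0.14), HNRNPC 2664 and 2399 (-0.15) and HNRNPU 2515 and 2165 (-0.22). HNRNPA1, the classical antagonist of SR proteins, read 892 and 736 (-0.28) on its brightest probe set, although a dimmer one read 125 and 68.9 (-0.86). HNRNPR, HNRNPDL, HNRNPH3, HNRNPF and HNRNPAB lay between -0.38 and -0.27. On the brightest probe sets these genes thus lay on both sides of the all-gene median, the highest of them at -0.14.

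**Figure D2:**
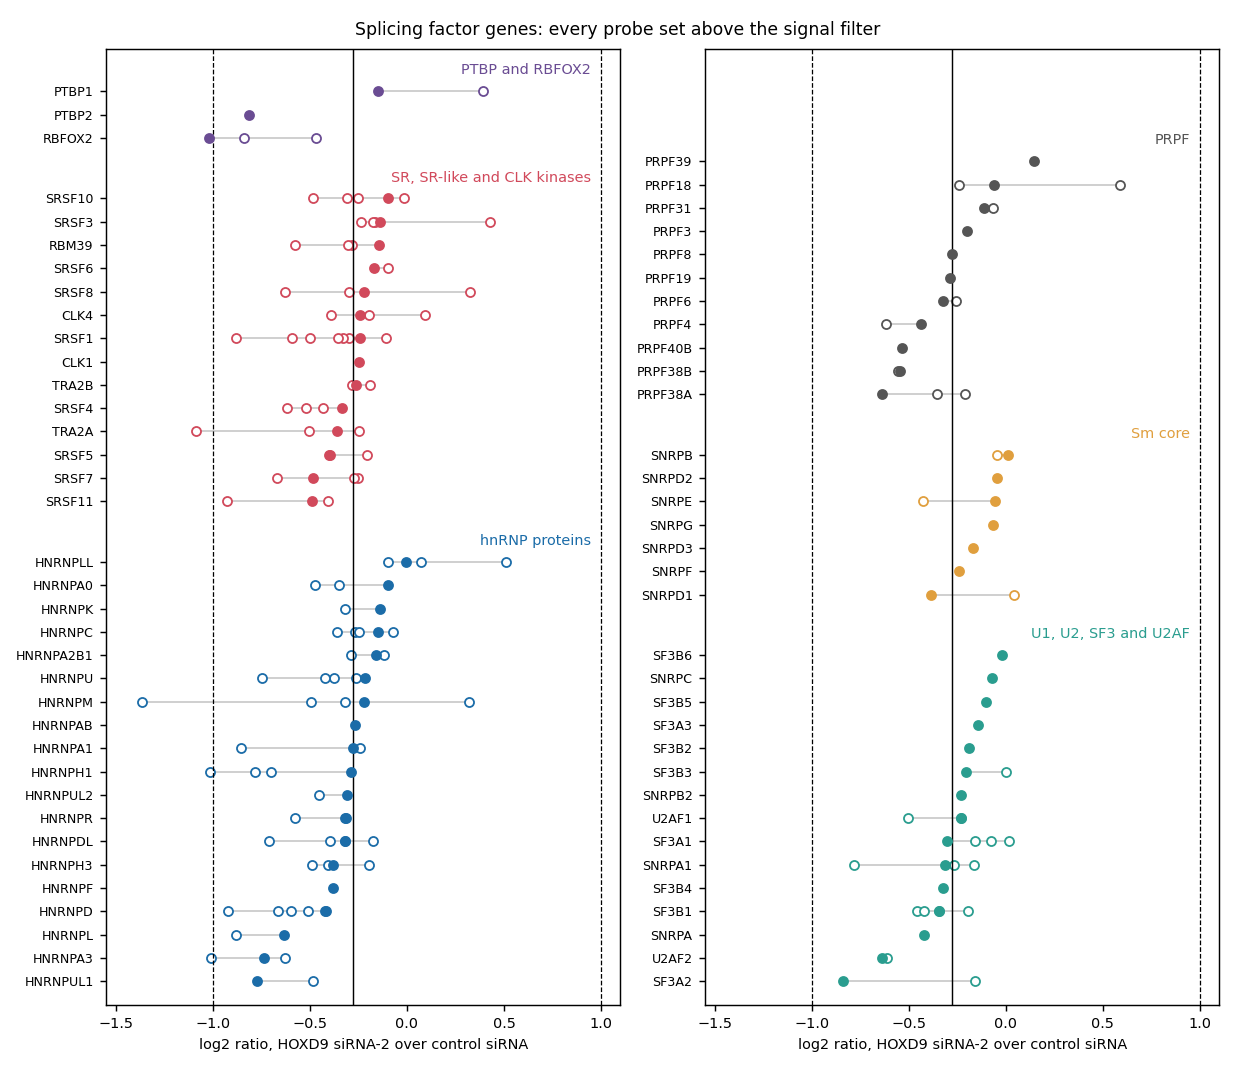
Log2 ratio of HOXD9 siRNA-2 over control siRNA (horizontal) for every kept probe set of the 69 genes, 1 line per gene, with the brightest probe set filled and the others open. The solid line marks the median of all kept probe sets, -0.28, and dashed lines mark 2-fold; 5 points lie left of the lower dashed line, in RBFOX2, HNRNPA3, HNRNPH1, HNRNPM and TRA2A.

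The 14 SR, SR-like and CLK genes had a median of -0.24, 0.006 above the all-gene median, with 8 genes above it and 6 below; the 9 SRSF genes alone had the same rounded median, -0.24. No gene of this group passed 2-fold on its brightest probe set. The lowest were SRSF11, SRSF7 and SRSF5. SRSF11, a protein found with U2AF, read 2446 after control siRNA and 1741 after HOXD9 siRNA-2 (-0.49), 330 and 174 (-0.93), and 179 and 135 (-0.41). SRSF7, an activator of exons that also takes part in mRNA export, read 2932 and 2093 (-0.49), 519 and 436 (-0.25), 454 and 285 (-0.67), and 34.5 and 28.5 (-0.27). SRSF11 thus lay below the array median on all of its kept probe sets, while those of SRSF7 lay on both sides of it. SRSF5 read 1560 and 1185 (-0.40) on its brightest probe set and -0.40 and -0.20 on the others.

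At the upper end, SRSF10, which turns into a splicing repressor when dephosphorylated, read 1148 after control siRNA and 1072 after HOXD9 siRNA-2 (-0.10), and its other probe sets ran from -0.49 to -0.02. SRSF3, the smallest SR protein, read 3130 and 2847 (-0.14), and all 5 of its probe sets lay above the array median, up to 0.43 on a dim one at 42.9 and 57.6. SRSF1, the founding SR protein and a known oncogene product, read 3457 and 2922 (-0.24) on its brightest probe set and from -0.88 to -0.11 on the other 7.

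TRA2A and TRA2B, the human relatives of the fly sex-determination factor Transformer-2, activate exons with purine-rich enhancers. TRA2B read 3768 after control siRNA and 3141 after HOXD9 siRNA-2 (-0.26). TRA2A read 459 and 358 (-0.36), 152 and 107 (-0.50) and 113 and 95.1 (-0.25). Its dimmest kept probe set, 36.1 and 17.0, was within background on the HOXD9 siRNA-2 array and was lower by at least 1.96-fold, so the measured log2 ratio of -1.09 past 2-fold is not bounded beyond it. The kinases CLK1 and CLK4 phosphorylate SR proteins and release them from storage in nuclear speckles. They read 269 and 226 (-0.25) and 219 and 185 (-0.24), at the all-gene median. RBM39, a relative of U2AF2 and also a transcriptional coactivator, read 1528 and 1381 (-0.15) on its brightest probe set. Its other kept probe sets were lower, at -0.28, -0.58 and -0.30.

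RBFOX2, PTBP1 and PTBP2 were the regulators outside the hnRNP and SR names, and the widest contrast between genes of one role lay here. RBFOX2, which activates or represses alternative exons according to the side on which it binds and is known for exon programmes of epithelial and mesenchymal cells, had the lowest log2 ratio of the 69 genes. Its probe sets read 734 after control siRNA and 361 after HOXD9 siRNA-2 (-1.02), 544 and 304 (-0.84), and 356 and 257 (-0.47). All 3 lay below the array median, and after centering they were -0.72, -0.54 and -0.17. The remaining RBFOX2 probe set was within background at 7.33 and 7.31. The call past 2-fold rested on the brightest probe set and on the deposited scale: the gene's log2 ratio was -0.75 after quantile normalization, -0.76 after removal of the loess trend and -0.78 as the mean over its probe sets. All of the kept RBFOX2 probe sets end in _s_at or _x_at. In the order of all genes RBFOX2 stood at the percentile 4.60 from the lowest.

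PTBP1, which represses exons through pyrimidine tracts, read 1684 after control siRNA and 1518 after HOXD9 siRNA-2 (-0.15) on its brightest probe set and 23.3 and 30.6 (0.39) on a dim one. PTBP2, the neuronal paralog whose own message PTBP1 routes to decay, read 85.8 and 48.8 (-0.81) on its 1 kept probe set and 20.1 and 14.1 on one below the filter, where the second signal was within background and gave no usable ratio. PTBP1 thus lay above the array median and PTBP2 below it, and after centering their values were 0.15 and -0.51. The median over these 3 genes, -0.81, is the PTBP2 value itself.

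The 15 genes of the U1 and U2 particles, SF3A, SF3B and U2AF had a median of -0.23, 0.019 above the all-gene median, with 8 above it and 7 below. SF3A2, a subunit that joins U2 before the branch point is recognised, had the lowest value but from probe sets that disagreed: 219 after control siRNA and 123 after HOXD9 siRNA-2 (-0.84) on the brighter, 130 and 116 (-0.16) on the other. U2AF2 and U2AF1 form the U2AF heterodimer, in which U2AF2 binds the polypyrimidine tract and U2AF1 the AG at the end of the intron. U2AF2 read 685 and 440 (-0.64) and 192 and 126 (-0.61), whereas U2AF1 read 1501 and 1278 (-0.23) and 102 and 87.1 (-0.23) on its brighter probe sets and 78.9 and 55.6 (-0.51) on the dimmest kept one. The 2 probe sets of U2AF2 were within 0.03 of each other and both lay below the array median. SF3B1, the branch-point subunit that is mutated in several cancers, read 1976 and 1558 (-0.34), and its 5 probe sets ran from -0.46 to -0.19.

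SNRPA and SNRPC are proteins of the U1 particle, and SF3B6 is the U2 subunit that touches the branch point adenosine. SNRPA read 810 after control siRNA and 605 after HOXD9 siRNA-2 (-0.42), next above U2AF2 and SF3A2. SNRPC read 505 and 479 (-0.07) and SF3B6 3003 and 2965 (-0.02), the highest values of the group. As deposited both lay just below 0, and after centering they were 0.23 and 0.28. The 3 SF3A genes had a median of -0.30 and the 6 SF3B genes one of -0.20, a difference that could not be tested.

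The Sm proteins form the ring of 7 subunits on the U1, U2, U4 and U5 RNAs, and all 7 subunits were measured. Their median of -0.07 was the highest of the role groups, 0.18 above the all-gene median, and 6 of the 7 genes lay above that median. SNRPB read 1519 after control siRNA and 1529 after HOXD9 siRNA-2 (0.01), SNRPD2 5088 and 4924 (-0.05), SNRPE 2855 and 2744 (-0.06) and SNRPG 4569 and 4357 (-0.07). These signals of the brightest probe sets were nearly level between the arrays as deposited and stood at percentiles 75.8 to 83.9 among all genes. The group's median after centering was 0.23. The other probe set of SNRPE read lower, at 315 and 234 (-0.43), below the array median. SNRPD3 read 2245 and 1994 (-0.17) and SNRPF 766 and 647 (-0.24). SNRPD1 was the 1 gene below the all-gene median, at 1838 and 1407 (-0.39) on its brighter probe set, while its other probe set read 380 and 391 (0.04). With the mean over the probe sets of each gene, the median of the Sm group was -0.17 as deposited. The group's difference from all genes also depended on the array's trend with signal: it was 0.058 in the smallest case, once the loess trend of the log2 ratio on signal was removed or the arrays were quantile normalized.

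**Figure D3:**
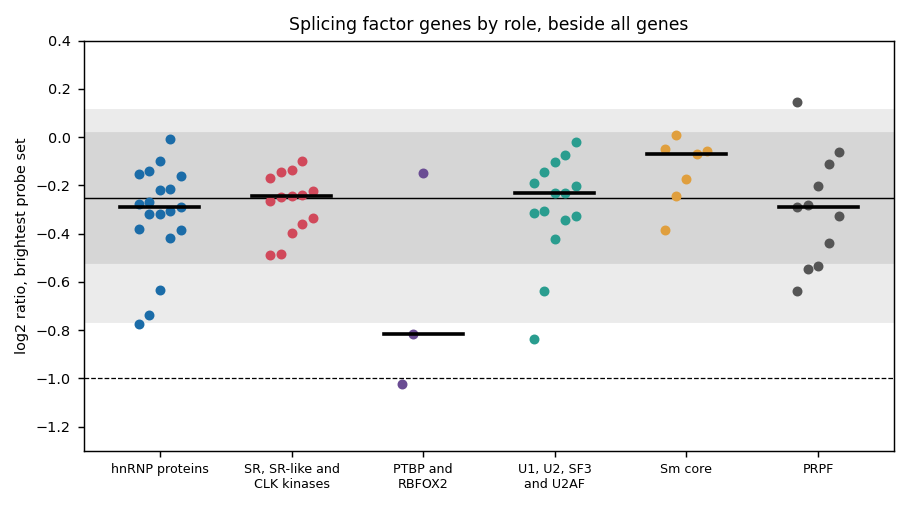
Log2 ratio of each gene at its brightest probe set (vertical) by role, 1 point per gene, with a bar at the group's median. The thin line marks the all-gene median of -0.25, the light band the central part (10th to 90th percentile) of all genes, from -0.76 to 0.11, the darker band that of the 3875 brightest genes and the dashed line 2-fold; the Sm group has its bar at -0.07 and the regulators at -0.81.

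Many promoters of the U1, U2 and Sm genes held a motif that the choice of genes did not use. The motif, CCGGAAG of ETS-family factors, was picked after the values were seen and was sought on both strands in windows from 250 bases before to 50 bases after each start in RefSeq on GRCh38.p14. A gene was counted if any of its windows held it. It was found in 10 of 14 U1, U2, SF3 and U2AF genes (71.4%) and 4 of 6 Sm genes (66.7%), beside 3 of 18 hnRNP genes (16.7%), 2 of 12 SR genes (16.7%), 2 of 9 PRPF genes (22.2%) and 1 of 2 regulators. Of all splicing factor genes with a window, 22 of 61 (36.1%) held it, beside 22.7% of the 9519 genes above the filter and 12.2% of all 27305 genes in the table. Most splicing factor genes are among the brightest genes, for which this share was not counted. The 3 windows below were chosen after the values were seen, to set SF3B6 and SNRPC, the highest of the U1 and U2 group, beside HNRNPA3, low on every probe set. They are given 5′ to 3′ on the gene's strand with CCGGAAG and its complement CTTCCGG in capitals.
SF3B6, chr2:24076277-24076576, minus strand: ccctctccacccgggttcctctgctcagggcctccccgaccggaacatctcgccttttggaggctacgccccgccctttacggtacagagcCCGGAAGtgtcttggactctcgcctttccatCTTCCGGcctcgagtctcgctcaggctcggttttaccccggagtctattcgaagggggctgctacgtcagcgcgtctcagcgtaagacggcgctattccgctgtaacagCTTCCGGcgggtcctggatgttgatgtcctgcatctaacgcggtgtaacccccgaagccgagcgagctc
SNRPC, chr6:34757255-34757554, plus strand: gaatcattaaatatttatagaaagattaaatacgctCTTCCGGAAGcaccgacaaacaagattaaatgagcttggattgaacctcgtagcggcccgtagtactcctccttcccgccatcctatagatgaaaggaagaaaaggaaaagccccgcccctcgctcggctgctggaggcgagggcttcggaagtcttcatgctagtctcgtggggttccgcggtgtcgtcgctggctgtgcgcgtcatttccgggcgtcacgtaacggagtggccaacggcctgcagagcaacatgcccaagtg
HNRNPA3, chr2:177212544-177212843, plus strand: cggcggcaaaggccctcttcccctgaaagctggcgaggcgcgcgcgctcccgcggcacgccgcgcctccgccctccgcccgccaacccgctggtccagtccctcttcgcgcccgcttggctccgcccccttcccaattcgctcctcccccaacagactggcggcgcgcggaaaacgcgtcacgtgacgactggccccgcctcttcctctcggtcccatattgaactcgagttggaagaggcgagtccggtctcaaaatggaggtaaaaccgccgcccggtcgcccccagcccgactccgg
The SF3B6 window held 3 matches and the SNRPC window 2 that overlap as a palindrome, while HNRNPA3 held 0. SF3A2 and U2AF2, the lowest of the U1 and U2 group at -0.84 and -0.64, also held the motif. In the Sm group it was held by SNRPB (0.01), SNRPD2 (-0.05), SNRPE (-0.06) and SNRPG (-0.07). SNRPD3 (-0.17) and SNRPF (-0.24) did not hold it. SNRPD1 (-0.39), the lowest Sm gene, had no window and was not examined, and neither was SF3B3 (-0.20) of the U1 and U2 group. Whether the motif goes with the values was not tested. Motifs of the HOX and homeodomain kind were sought as well. These were counted by window, so that a gene with several windows can count more than once. TTTATG was in 5 of the 83 splicing factor windows (6.02%), beside 6.03% of the 13944 windows of genes above the filter. TTTACG was in 6 (7.23%) beside 3.94%, and TAATTA in 1 (1.20%) beside 2.32%. A match describes these letters and is not a binding site, and no match says only that the letters are not in the window.

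The 11 PRPF genes had a median of -0.29, 0.040 below the all-gene median, with 4 above it and 7 below. The lowest were the relatives PRPF38A and PRPF38B, of which PRPF38A joins the spliceosome before it is activated. PRPF38A read 602 after control siRNA and 387 after HOXD9 siRNA-2 (-0.64) on its brightest probe set and -0.21 and -0.35 on the others. PRPF38B read 347 and 238 (-0.55) and 346 and 236 (-0.56). The 2 probe sets of PRPF38B gave nearly the same value, and those of PRPF38A spread around the array median. PRPF40B, a relative of a yeast U1 protein, read 60.0 and 41.3 (-0.54), and PRPF4, of the U4 and U6 particle, read 620 and 458 (-0.44) and 471 and 307 (-0.62).

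PRPF39, a U1-associated protein, was the highest of the 69 genes. It read 111 after control siRNA and 122 after HOXD9 siRNA-2 (0.14) on a single kept probe set. PRPF18, needed in the second step of splicing, read 414 and 396 (-0.06) on its bright probe set and 20.4 and 30.5 (0.59) and 25.7 and 21.7 (-0.24) on dim ones. PRPF8, the large protein at the catalytic centre, read 1036 and 853 (-0.28), at the array median. PRPF31, PRPF3 and PRPF6, proteins of the joined U4, U5 and U6 particle, read -0.11, -0.20 and -0.33.

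Agreement between probe sets of a gene was the only spread that these arrays gave. Probe sets of a gene can overlap, read different transcript forms or bind near-identical copies, and they are not replicates. Over 48 splicing factor genes with 2 or more kept probe sets (161 probe sets), the pooled SD of log2 ratios within a gene was 0.25, beside 0.41 over 6081 genes of the whole array. Split into dim, middle and bright classes of equal size over all genes, it was 0.44 for dim probe sets, 0.23 for the middle class and 0.18 for bright ones, beside 0.57, 0.33 and 0.25 for all genes. Of the splicing factor probe sets, 101 of 161 were in the bright class. The median span within a gene was 0.38, beside 0.40.

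In 13 of the 48 genes (27.1%) every probe set lay below the array median, beside 23.4% of all genes with several probe sets. They were HNRNPA3, HNRNPD, HNRNPH1, HNRNPL, HNRNPR, HNRNPUL1, HNRNPUL2, RBFOX2, SRSF4, SRSF11, U2AF2, PRPF4 and PRPF38B, 7 of them hnRNP genes, out of 17 hnRNP genes with several kept probe sets (41.2%). Of these 7, HNRNPH1, HNRNPUL2 and HNRNPR each had a probe set only just below the array median of -0.28, at -0.29, -0.31 and -0.32. Those margins are small beside the pooled SD within a gene. In 8 genes (16.7%) every probe set lay above the array median, beside 22.6%. These were HNRNPLL, PTBP1, SRSF3, SRSF6, SF3B3, SNRPB, PRPF18 and PRPF31. The shares over the 48 genes were near those of the whole array. None of the 48 had all of its probe sets lower by more than 2-fold, beside 63 of 6081 genes (1.04%), too rare a case to read anything from 48 genes. In 10 genes (20.8%) the probe sets differed in sign, beside 34.1% of all. The brightest probe set lay above the others of its gene in 29 of 48 genes (60.4%), beside 53.2%. Within 33 genes that had both kinds, probe sets ending in _at were lower than those ending in _x_at or _s_at in 18 (54.5%), beside 54.8% of all such genes.

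**Figure D4:**
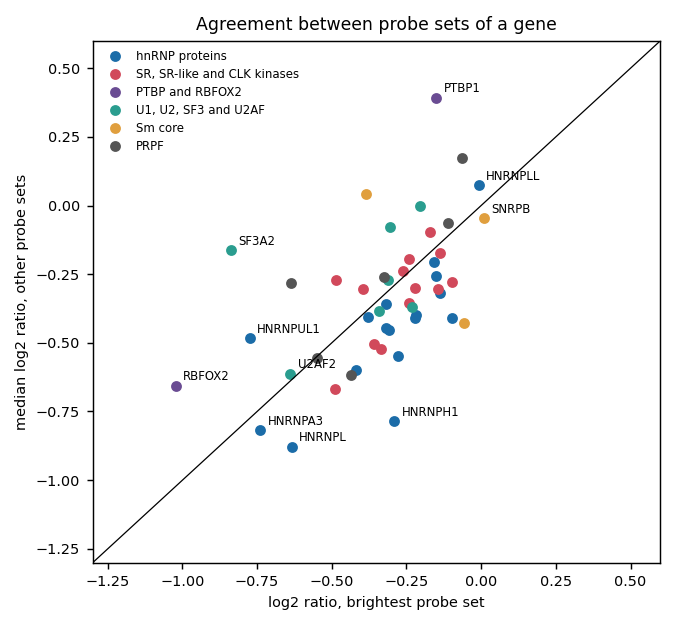
Log2 ratio of the brightest kept probe set (horizontal) against the median log2 ratio of the gene's other kept probe sets (vertical) for the 48 splicing factor genes with 2 or more; the line marks equality. HNRNPA3, HNRNPL and RBFOX2 are low on both axes, while SF3A2 (-0.84 and -0.16) and HNRNPH1 (-0.29 and -0.79) lie away from the line.

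The 32 splicing factor probe sets below the filter carried little information. In 26 of them both signals were within the background of 18.4, or in 20 by each array's own background, and the highest signal was 28.7. As measured, 17 of the 32 (53.1%) passed 2-fold, 10 lower and 7 higher, beside 51.3% of all probe sets below the filter. The 5 genes without a kept probe set were SRSF12, SNRPN, the pseudogene HNRNPA3P1 and the divergent transcripts HNRNPD-DT and SNRPF-DT. SNRPN, an imprinted relative of SNRPB used in the brain, read 13.5 and 1.06, both under 18.4, although the first is above the control array's own background of 11.4.

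A list of 114 other splicing genes, with 108 above the filter, stood close to the splicing factors above. Its median was -0.28, with 44 genes above the all-gene median and 64 below, 1 lower by more than 2-fold (0.926%, beside 4.95% of all genes) and 0 higher (beside 0.516%). The lowest was SMNDC1, a Tudor-domain protein needed for spliceosome assembly, at 1028 after control siRNA and 378 after HOXD9 siRNA-2 (-1.44 as deposited, -1.14 centered). It was followed by SNRNP200, the helicase that unwinds U4 from U6, at 58.4 and 30.3 (-0.95), and SRRM1, an SR-related coactivator, at 905 and 479 (-0.92). The highest were CLK3, a kinase of SR proteins, at 179 and 255 (0.51), and XAB2, at 47.9 and 59.3 (0.31). SMNDC1, SNRNP200, CLK3 and XAB2 each had 1 kept probe set. SMNDC1 passed 2-fold on both scales, and no gene of the families above did at its brightest probe set.

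**Figure D5:**
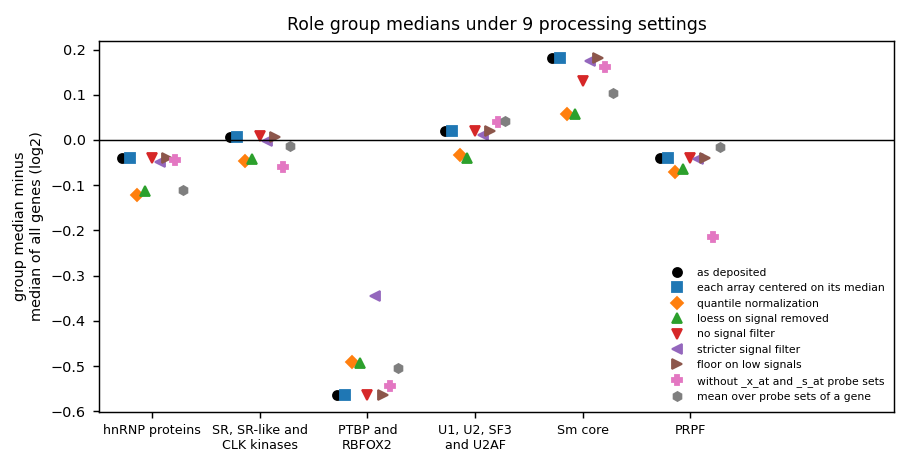
Median log2 ratio of each role group minus that of all genes (vertical) under 9 processing settings, 1 symbol per setting. The regulators lie between -0.56 and -0.34, hnRNP between -0.12 and -0.039 and the Sm group between 0.058 and 0.18, while SR and U1, U2 cross 0. The regulators are not the same genes in every setting: the stricter filter leaves out PTBP2, and without _x_at and _s_at probe sets only PTBP2 is left.

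Across the 9 settings, the median of all splicing factor genes differed from that of all genes by -0.061 to -0.0037. The hnRNP group ranged from -0.12 to -0.039 and PRPF from -0.22 to -0.016, both below the array in each setting. The SR group ranged from -0.060 to 0.0087 and the U1 and U2 group from -0.040 to 0.043, on both sides of it. The Sm group ranged from 0.058 to 0.18 and the regulators from -0.56 to -0.34. The regulators' value of -0.34 came from the stricter filter, which leaves out PTBP2, so their range is not over the same genes. No error can be given for these group differences.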

How the data were processed

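Total RNA from U87 cells was hybridized to Human Genome U133 Plus 2.0 arrays, 1 per siRNA. The deposited values are linear signal intensities made by the authors, 1 per probe set and array. The submitters' processing notes name GCOS, and the study's methods name GeneSpring. For the signal algorithm, the target to which arrays were scaled and the detection calls, the settings were not given in the sources used here. If the arrays were scaled differently, every log2 ratio moved by one amount.

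After 62 control probe sets were set aside, log2 ratios were computed for 54613 probe sets in Python (3.11.15), using pandas (2.3.3), numpy (2.4.6) and, for loess, statsmodels (0.14.6), with figures from matplotlib (3.10.9). Names came from the annotation of the platform, and all 214 splicing factor probe sets matched RefSeq by gene number with 0 symbols changed. The scripts were tested on simulated data. Samples were grouped by their labels. With 1 array per condition there is no test, and lists are described by counts and medians beside all genes. Where 1 signal was within background, the difference is a bound taken at 18.4. Genes were named where a kept probe set passed 2-fold, where probe sets spanned more than 1, or as the 3 lowest and 2 highest of a role group, and further genes and the promoter windows were picked after their values were seen. The genes and lists were chosen with earlier results of these data known. Alternatives were centering, quantile normalization, loess (fraction 0.3), raising low signals to the 20th percentile, no filter, a stricter filter (75.7, the 70th percentile), leaving out _x_at and _s_at probe sets, the mean over probe sets and other background bounds.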

Additional observations from a re-analysis of the deposited data

How the results depend on the processing

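With 1 array per siRNA, scaling and array noise cannot be told apart from a shared change, and low signals cannot show a difference reliably. Of the group values under alternatives, 196 stayed within the spread used here and 25 moved. That spread was wide beside the group differences. The median of all splicing factor genes counted as staying at -0.030 after quantile normalization, beside -0.26 as deposited. The Sm group's difference from all genes counted as staying at 0.058, beside 0.18 as deposited. These counts therefore do not show that the group values are stable. Among the 31 named genes, 235 values stayed, 64 moved and 4, all of RBFOX2, lost the call past 2-fold. Centering adds the same 0.30 to every log2 ratio, and a shift of that size counted as a move. Settings that act on low signals left bright probe sets as they were, and such values counted as staying. The tally thus depends on which settings were used. The log2 ratio of 15 genes lay on both sides of 0 over the settings, as in HNRNPM (-0.42 to 0.32), SRSF10 (-0.49 to 0.20) and PTBP1 (-0.15 to 0.15). The 1 gene lower by more than 2-fold, RBFOX2, became 0 after centering, 0 after quantile normalization, 0 after loess, 0 with the mean over probe sets and 0 without _x_at and _s_at probe sets, which leaves RBFOX2 without a value. With no filter 3 genes were lower and 1 higher, and the pooled SD between probe sets was 0.72. Centering moved the medians to 0.037 for all splicing factor genes, 0.0098 for hnRNP, 0.055 for SR, -0.51 for the regulators, 0.068 for U1 and U2, 0.23 for Sm and 0.0098 for PRPF, beside 0.049 for all genes. The regulators' median was -0.46 after quantile normalization and -0.47 after loess. The count of hnRNP genes above the all-gene median was 2 after quantile normalization and 4 after loess. Leaving out _x_at and _s_at probe sets also removed genes, with PTBP2 the only regulator left, so the counts in that setting come from fewer genes. The genes above the all-gene median were then 5 for SR, 0 for the regulators and 2 for PRPF, and 4 genes had every probe set over the array median. In that setting 3 of the other splicing genes were lower by more than 2-fold, beside 2 with the mean over probe sets. The cause of these moves was not tested. No paired analysis was possible because each siRNA has 1 array.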
